A study of Homo sapiens with 12 samples.

Results

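JQ1 and panobinostat given together for 6 h were compared with vehicle in SK-N-BE(2) cells, a neuroblastoma cell line whose label describes it as MYCN-amplified. The comparison took every array of these groups, which is 6 of the 12 arrays of the series. It took every gene with a transcript cluster that carried 1 gene symbol, which is 14884 genes. Clusters with several symbols or none were not part of these. A transcript cluster is the set of probes that the Human Gene 2.0 ST array assigns to 1 transcribed locus, and a gene with several was represented by the brightest. The combination group received 1 µM JQ1 and 10 nM panobinostat on 3 arrays, and the vehicle group received neither compound on 3 arrays. The other groups were 1 µM JQ1 alone and 10 nM panobinostat alone, also for 6 h and with 3 arrays each. All groups grew in Dulbecco's modified Eagle's medium with 10% fetal calf serum, and all results are from this 1 cell line, which shows the response of a tumour line in culture and not of a tumour. MYCN and CDKN1A were not analysed here.

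JQ1 displaces the BET proteins, readers that bind acetylated lysines on histones and help RNA polymerase II to leave promoters and enhancers. Panobinostat blocks histone deacetylases, the enzymes that remove acetyl groups, so acetylated lysines accumulate across chromatin. Neuroblastoma cells of the noradrenergic type keep the gene programme of sympathetic neuroblasts, which is held by a circuit of transcription factors including PHOX2A, HAND2 and GATA3 that sit on large acetylated enhancers.

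The cells carried the markers that their label calls for. All 16 measured noradrenergic neuroblastoma markers lay above the median gene, and their mean log2 signal was 10.6 in vehicle and 10.0 in the combination arrays. Of the other cell types a culture could hold, 1 of 7 immune, 1 of 7 epithelial, 2 of 8 endothelial and 2 of 7 Schwann cell and melanocyte markers lay above the median gene. Of 11 fibroblast and mesenchymal markers 7 did, VIM among them. Correlations between arrays over all genes were 0.991 to 0.995 within the vehicle and combination groups and 0.962 to 0.969 between them. Combination replicate 1 and vehicle replicate 1 deviated from their group means in opposite ways (r = -0.65 across genes, which are not independent replicates), and counts without these 2 arrays are given where they move.

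Values are log2 signal intensities, with the log base read from their range of 1.391 to 14.1, so every fold change rests on that reading. Changes are log2 differences, combination minus vehicle, ± SE from limma with n = 3 arrays a group. "Rose" and "fell" are kept for genes called at an adjusted p under 0.05 over all 14884 genes in limma's moderated test. The labels do not say whether replicates were separate cultures, so the p-values reflect how far these particular samples spread, and that spread may be technical. With 3 arrays in each group, an exact two-sided permutation test bottoms out at p = 0.1. Each array carries RNA of a whole culture, so fewer cells with a transcript and less transcript in each cell cannot be told apart.

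Among all genes 37.7% were called, 18.2% higher and 19.5% lower, and 5.11% were called with a change of at least 2-fold (296 higher and 465 lower). Leaving out vehicle replicate 1 and combination replicate 1 turned this excess of large falls into an excess of large rises, with 422 genes higher by 2-fold or more and 392 lower. Calls were most frequent among protein-coding genes, of which 2474 of 11916 rose and 2663 fell. Of 1398 lncRNA genes 122 rose and 163 fell, of 449 pseudogenes 50 rose and 29 fell, and of 1072 miRNA genes 62 rose and 43 fell. With the genes split into 4 equal groups by mean signal, the share called grew with brightness, from 9.59% in the dimmest group through 24.8% and 53.5% to 63.0% in the brightest. In the dimmest group 238 genes rose and 119 fell, whereas the brightest was nearly even at 1124 and 1222. The median change over all genes was 0.02.

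**Figure D1:**
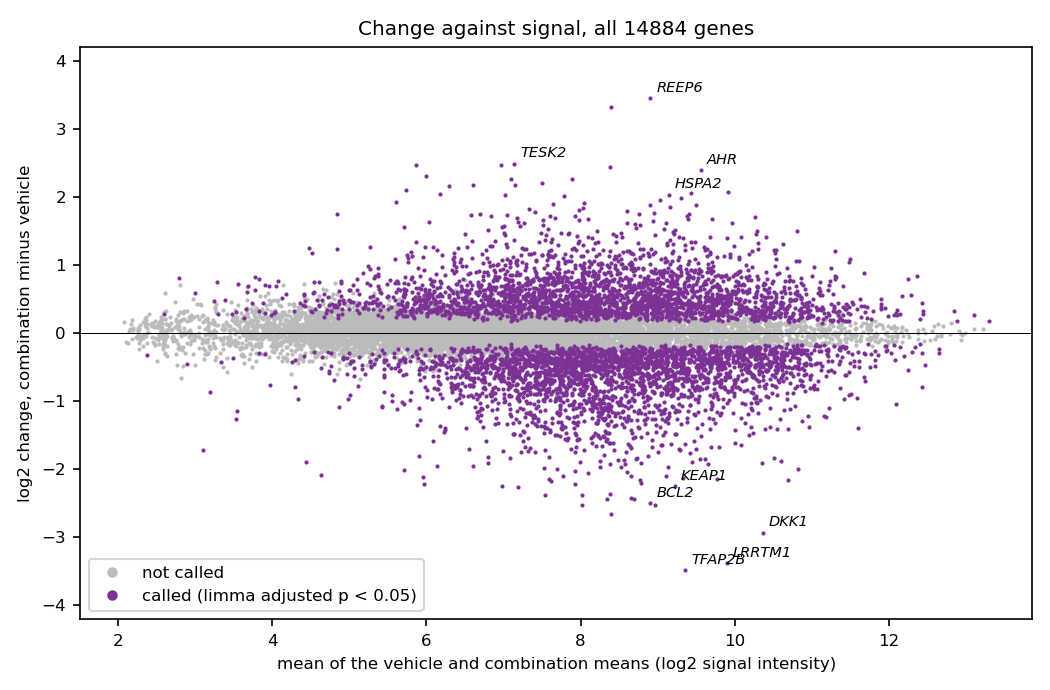
Log2 change (combination minus vehicle, vertical axis) against mean log2 signal intensity (horizontal axis) for all 14884 genes, with 1 point a gene and called genes in purple. Called genes lie on both sides of 0 (2713 above and 2901 below), and the labelled REEP6 and TFAP2B stand at the 2 ends.

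The 15 largest rises were taken among called protein-coding genes of at least median level whose groups' arrays did not overlap, a condition that 46.1% of all genes met. Their folds ran from 4.03 to 10.9, and the smallest gap between the lowest combination array and the highest vehicle array was 1.24 on the log2 scale. REEP6, a protein that shapes the endoplasmic reticulum and is known from rod photoreceptors, read 7.43, 7.15 and 6.95 on the vehicle arrays and 10.43, 10.79 and 10.66 on the combination arrays. Every combination array thus lay about 3 log2 units above every vehicle array, and the change was 3.45 ± 0.15 (limma adjusted p = 2.19e-08). TESK2, a kinase that acts on the actin regulator cofilin, read 6.16, 5.84 and 5.68 in vehicle and 8.26, 8.38 and 8.51 in the combination, a rise of 2.49 ± 0.14. For both genes vehicle replicate 1 was the highest vehicle array, and it still lay well below the combination arrays.

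The bases before the starts of REEP6 and TESK2, the 2 largest rises, are shown for the short promoter elements they hold. They are the 150 bases upstream of the RefSeq start in GRCh38.p14, REEP6 at chr19:1491031-1491180 on the plus strand and TESK2 at chr1:45491164-45491313 on the minus strand. Both are written 5′ to 3′ along the gene's strand. Capitals mark matches to the motifs described with the promoter shares, which here are CCAAT boxes (read as ATTGG on the other strand), GC boxes (CCGCCC, or GGGCGG on the other strand) and, in TESK2, GCGTG, the core of the element that the AHR complex is known to bind.
REEP6: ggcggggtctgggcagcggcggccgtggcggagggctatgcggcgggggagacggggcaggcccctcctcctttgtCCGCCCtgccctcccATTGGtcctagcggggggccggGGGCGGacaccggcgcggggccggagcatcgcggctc
TESK2: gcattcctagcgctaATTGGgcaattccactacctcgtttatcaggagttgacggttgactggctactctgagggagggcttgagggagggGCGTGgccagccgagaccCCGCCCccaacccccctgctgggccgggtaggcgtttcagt
The REEP6 stretch held 1 CCAAT box and 2 GC boxes, and that of TESK2 held 1 of each.

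Regulators of transcription, translation and protein turnover were among the other large rises. AHR, the aryl hydrocarbon receptor and a ligand-activated transcription factor, read 8.25, 8.42 and 8.41 in vehicle against 10.88, 10.60 and 10.78 in the combination (2.39 ± 0.09). USP53, a member of the ubiquitin-specific protease family found at cell junctions, rose by 2.47 ± 0.12. PAIP2B, which restrains translation by binding the poly(A)-binding protein, rose by 2.44 ± 0.17. HYKK, the hydroxylysine kinase, rose by 2.27 ± 0.15, and DHRS2, a dehydrogenase/reductase, by 2.21 ± 0.25. DHRS2 had the least even combination arrays of these, at 7.98, 8.85 and 8.99 with replicate 1 lowest, against 6.74, 6.40 and 6.06 in vehicle.

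Ligands at the cell surface or secreted from it formed another part of the rises. EFNA3, an ephrin that binds EPHA receptors on neighbouring cells, read 6.77, 6.72 and 6.76 in vehicle and 8.89, 9.08 and 9.08 in the combination. The 6 arrays of EFNA3 fell into tight, separate groups (2.27 ± 0.08, limma adjusted p = 7.22e-09). ULBP1, a stress-induced ligand of the NKG2D receptor of natural killer cells, read 5.41, 4.66 and 5.54 in vehicle against 7.25, 7.27 and 7.59 in the combination. Vehicle replicate 2 was the dimmest ULBP1 array, and the rise was 2.16 ± 0.21. STC1, the secreted glycoprotein stanniocalcin 1, rose by 2.06 ± 0.10. CCDC110, known as a cancer-testis antigen, rose by 2.17 ± 0.10, HSPA2, an HSP70 chaperone abundant in testis, by 2.03 ± 0.13, and TEC, a non-receptor tyrosine kinase, by 2.03 ± 0.22. The list was completed by EFCAB12 (2.18 ± 0.23) and KIAA0513 (2.01 ± 0.11). The largest adjusted p among these 15 rises was 2.07e-05.

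**Figure D2:**
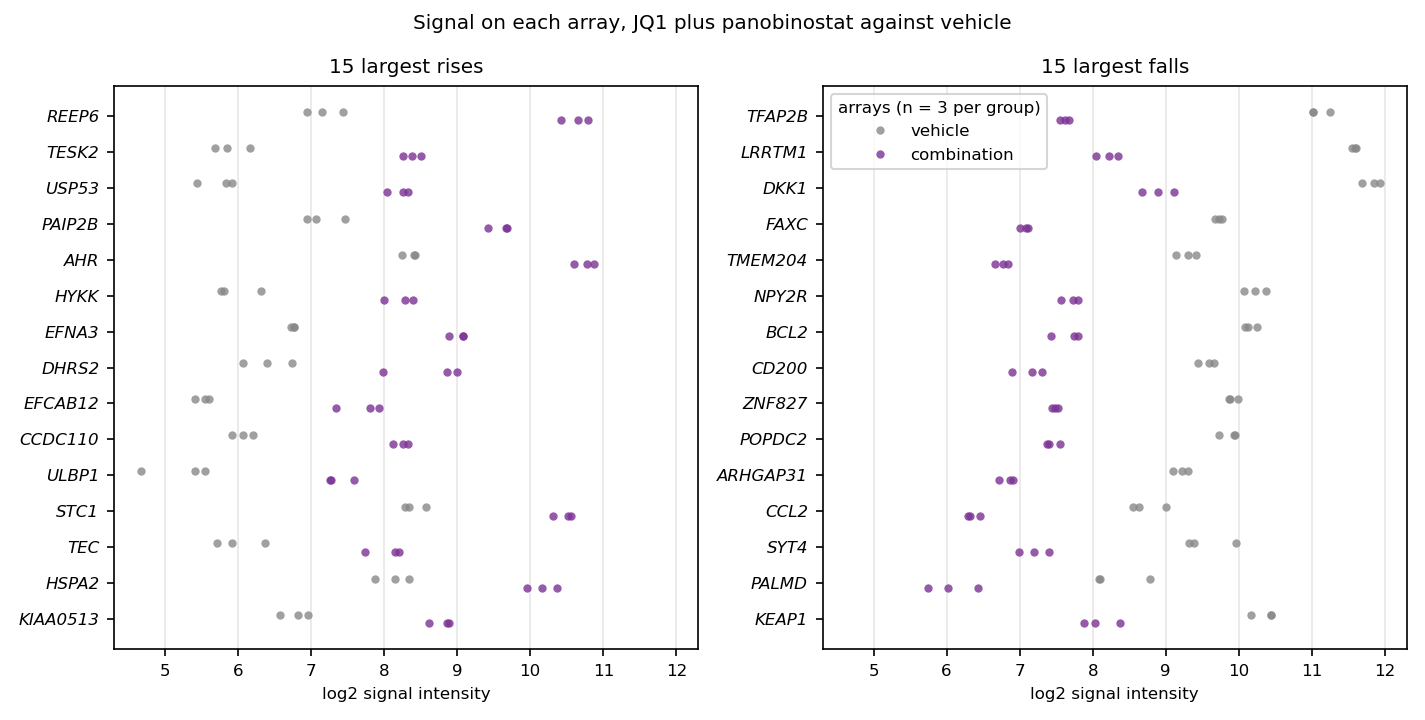
Log2 signal intensity (horizontal axis) on each of the 3 vehicle (grey) and 3 combination (purple) arrays for the 15 largest protein-coding rises (left) and falls (right). Genes were chosen to have no overlap between groups, and the smallest gap is 1.24 among the rises and 1.65 among the falls.

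The 15 largest falls ran from 4.77-fold to 11.2-fold and began with a transcription factor of the sympathetic lineage. TFAP2B, the AP-2 beta factor needed for sympathetic neuron development, read 11.02, 11.25 and 11.02 in vehicle and 7.55, 7.67 and 7.62 in the combination. The combination arrays of TFAP2B spanned little over 0.1 log2 unit while the groups stood 3 units apart (-3.48 ± 0.09, limma adjusted p = 1.36e-09). LRRTM1, a leucine-rich repeat protein that organises synapses, read 11.55, 11.61 and 11.59 in vehicle and 8.04, 8.22 and 8.35 in the combination, and fell by 3.38 ± 0.11. DKK1, a secreted antagonist of WNT signalling, read 11.94, 11.69 and 11.85 against 8.68, 8.89 and 9.11, and fell by 2.93 ± 0.14. For LRRTM1 and DKK1 combination replicate 1 was the dimmest of the 6 arrays. Groups without overlap were a condition for naming these falls, so their absence of overlap is not a result.

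The same stretch of 150 bases before the start is shown for TFAP2B (chr6:50818721-50818870, plus strand) and LRRTM1 (chr2:80304753-80304902, minus strand), because they differ from the rising genes in base composition. It is again from RefSeq in GRCh38.p14, and capitals again mark motif matches.
TFAP2B: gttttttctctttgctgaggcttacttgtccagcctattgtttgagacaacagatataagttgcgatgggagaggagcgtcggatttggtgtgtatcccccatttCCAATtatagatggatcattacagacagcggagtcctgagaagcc
LRRTM1: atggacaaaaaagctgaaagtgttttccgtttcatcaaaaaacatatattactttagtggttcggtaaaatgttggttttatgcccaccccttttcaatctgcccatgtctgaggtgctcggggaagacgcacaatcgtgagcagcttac
The TFAP2B stretch held 1 CCAAT box and no GC box, and that of LRRTM1 held none of the motifs. Over 250 bases before the start, GC content was 40.8% for both TFAP2B and LRRTM1, against 75.2% for REEP6 and 59.6% for TESK2. Most falling genes were not so low, as those at least 2-fold lower had a median of 64.4%, with 16.2% under 50%.

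Survival, redox and cell-surface genes were also among the falls. BCL2, which blocks apoptosis at the mitochondrion, read 10.25, 10.09 and 10.13 in vehicle and 7.43, 7.79 and 7.74 in the combination (-2.50 ± 0.09). KEAP1, the adaptor that sends the oxidative stress factor NRF2 to degradation, read 10.44, 10.16 and 10.44 against 7.88, 8.03 and 8.37 (-2.25 ± 0.13). CD200, a membrane ligand that restrains myeloid cells, read 9.59, 9.66 and 9.44 against 7.17, 7.30 and 6.90 (-2.44 ± 0.10). None of these 3 genes had a combination array within 1.5 log2 units of a vehicle array. CCL2, a chemokine that attracts monocytes, fell by 2.37 ± 0.18.

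Neuronal genes followed. NPY2R, a receptor for neuropeptide Y, fell by 2.52 ± 0.09, and SYT4, a synaptotagmin of neuronal vesicles, fell by 2.36 ± 0.17. The remaining falls were FAXC (-2.65 ± 0.08), the membrane protein TMEM204 (-2.53 ± 0.12), the zinc finger protein ZNF827 (-2.43 ± 0.06) and the membrane protein POPDC2 (-2.43 ± 0.09). ARHGAP31, which switches off the GTPases RAC1 and CDC42, stood at -2.38 ± 0.10 and PALMD at -2.26 ± 0.27. The largest adjusted p among the 15 falls was 3.21e-05.

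Each of these 30 genes was also set against the arrays with 1 compound, to see what the combination differed from. The genes were chosen for their change on the same combination arrays, which favours a difference from each compound, so the counts below are a description of these genes. The comparisons with vehicle share the vehicle arrays, so their values are given side by side only. Among all genes 25.6% differed between the combination and JQ1 (11.7% higher and 13.9% lower with the combination) and 14.7% between the combination and panobinostat (6.13% higher and 8.55% lower), although the latter count of 2184 genes was 1325 with only the arrays of those groups. At least 2-fold differences were called for 1.32% and 0.309% of all genes. Of the 15 rises, 15 were higher with the combination than with JQ1 and 9 were higher than with panobinostat. REEP6 stood at 1.17 with JQ1, 2.60 with panobinostat and 3.45 with the combination, which exceeded panobinostat by 0.85 ± 0.15 (adjusted p = 0.00297). DHRS2 stood at 0.06, 0.92 and 2.21, and the combination exceeded panobinostat by 1.29 ± 0.25.

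For the other 6 rises the level with panobinostat alone was not told apart from that with the combination. The combination minus panobinostat, with its 95% interval as ±, was -0.08 ± 0.18 for EFNA3, -0.05 ± 0.28 for HSPA2 and 0.05 ± 0.22 for CCDC110. It was 0.19 ± 0.33 for HYKK, 0.21 ± 0.50 for EFCAB12 and 0.28 ± 0.47 for TEC. JQ1 alone gave 0.36 for EFNA3, 0.06 for CCDC110, -0.03 for EFCAB12 and -0.02 for TEC, values far under those of the combination.

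All 15 falls were lower with the combination than with panobinostat, and 13 were lower than with JQ1. TFAP2B stood at -1.41 with JQ1, -2.42 with panobinostat and -3.48 with both. BCL2 stood at -0.68, -1.19 and -2.50, and the difference of the combination was -1.82 ± 0.09 from JQ1 and -1.31 ± 0.09 from panobinostat. CD200 stood at -0.49, -1.84 and -2.44. The exceptions against JQ1 were CCL2, at -0.49 ± 0.40 (95% interval, adjusted p = 0.0728), and PALMD, at -0.61 ± 0.58 (95% interval, adjusted p = 0.123). Both genes also fell with JQ1 alone, CCL2 by 1.88 and PALMD by 1.65.

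**Figure D3:**
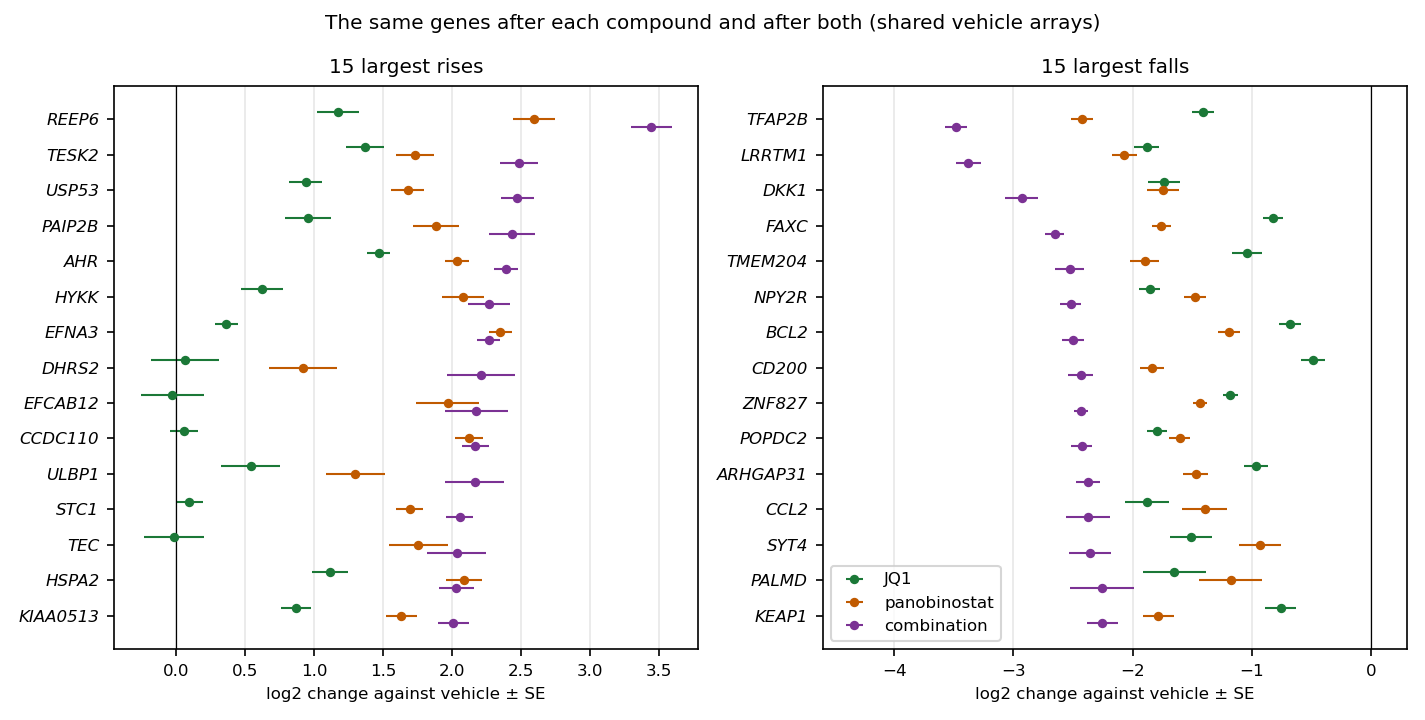
Log2 change against vehicle (horizontal axis, points, with SE as bars, n = 3 arrays a group) after JQ1, panobinostat and the combination for the 15 largest rises (left) and 15 largest falls (right), all against the same vehicle arrays. EFNA3, CCDC110 and HSPA2 have panobinostat and combination points side by side, while TFAP2B and BCL2 have the combination point beyond both others.

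Gene lists were read by their counts beside 18.2% higher and 19.5% lower over all genes, with no list test. Several lists had a share called near the 37.7% of all genes. They were HOX genes (37.0%), neuronal cytoskeleton and growth cone (36.8%), heat shock (42.1%), antigen presentation and interferon (42.3%) and WNT (42.4%). Axon guidance receptors (43.3%) and neurotransmitter receptors were near it too. Counts for these lists do not set them apart from all genes in how often they were called. The noradrenergic markers moved down nearly throughout, with 14 of 16 lower, 1 higher and a median of -0.48. They are bright genes (median signal 10.7), and in the brightest group of all genes 32.8% were lower and 30.2% higher. For other lists of bright genes too, the 63.0% called in that group is the closer share. Transcription factors led the noradrenergic list. HAND2, a basic helix-loop-helix factor of sympathetic neurons, read 11.86, 11.77 and 11.77 in vehicle and 10.59, 10.52 and 10.60 in the combination (-1.23 ± 0.07). GATA3 fell by 1.22 ± 0.07, HAND1 by 1.11 ± 0.08, and the homeodomain factor PHOX2A by 1.16 ± 0.07. PHOX2A was at -0.28 with JQ1 and -0.41 with panobinostat, whereas HAND2 was at 0.01 with JQ1 and -1.01 with panobinostat. UCHL1, a neuronal ubiquitin hydrolase, was at 0.05 ± 0.06 and not called. The 1 marker that rose, SYP (0.31), is named here after its value was seen, and it was not called with median centring, with only the arrays compared, or without replicate 2 or 3 of either group (count 0 of 16).

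Among markers of other cell types, those of fibroblasts and mesenchyme had the most calls, with 5 of 11 lower and 0 higher. They included SNAI2 (-0.97 ± 0.07), TWIST1 (-0.90 ± 0.16) and CD44 (-0.73 ± 0.08), and their mean signal was 8.84 in vehicle and 8.46 in the combination. DCN fell by 0.52 ± 0.17, a call lost with only the arrays compared, without both replicate 1 arrays, and without replicate 1 of vehicle (-0.51) or of the combination (-0.50), combination replicate 2 (-0.37) or vehicle replicate 3 (-0.41). VIM was at 0.04 ± 0.06. Of 7 Schwann cell and melanocyte markers 2 rose, MITF (0.70 ± 0.10) and ERBB3 (0.34 ± 0.09). Of 8 endothelial markers KDR rose (0.97 ± 0.11) and ENG fell (-1.24 ± 0.14). CD68 rose (0.33 ± 0.09) among 7 immune markers, a count that was 2 without combination replicate 2, and 0 of 7 epithelial markers were called (median 0.03). The part of other cell types in the results was not tested.

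Transmitter and granule genes split. Of 18 genes for catecholamine synthesis and granule cargo 8 fell and 3 rose. VIP, the vasoactive intestinal peptide, was lower by 1.70 ± 0.35 with the widest spread of these genes, and SCG2, a secretogranin of dense-core granules, fell by 1.41 ± 0.08. VGF, another granule protein, read 8.80, 8.92 and 8.58 in vehicle and 10.13, 10.18 and 10.01 in the combination (1.34 ± 0.11). GCH1, which makes the cofactor of tyrosine hydroxylase, rose by 1.03 ± 0.09. Among 23 genes of synaptic vesicle release 9 rose and 6 fell. SYN1, which tethers vesicles, rose by 1.41 ± 0.13, while SV2C (-1.29 ± 0.07) and the active-zone scaffold RIMS2 (-0.99 ± 0.07) fell with SYT4. Of 19 genes of the neuronal cytoskeleton and growth cone 6 fell and 1 rose. MAP1A, a microtubule-associated protein, rose by 0.94 ± 0.10, and MARCKS, an actin-binding protein, fell by 0.76 ± 0.07. DCLK1 fell by 0.62 ± 0.16, a call lost without both replicate 1 arrays (-0.46). Of 15 neurotransmitter receptors 5 fell, including NPY2R and ADCYAP1R1, the PACAP receptor (-0.80 ± 0.11), and 1 rose, SSTR2 (0.61 ± 0.11). That count of rises was 2 without vehicle replicate 3, combination replicate 3 or both replicate 1 arrays.

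Axon guidance genes moved in both directions within families. Of 15 ligands 6 rose and 4 fell. EFNA4, the ephrin gene next to EFNA3 in the genome, rose by 1.83 ± 0.17. SLIT2, a repellent ligand of ROBO receptors, rose 3.22-fold (1.69 ± 0.11). Its relative SLIT3 read 10.22, 10.27 and 10.01 in vehicle and 8.45, 8.79 and 8.38 in the combination (-1.63 ± 0.13), so the 2 SLIT genes moved in opposite directions by similar amounts. Of 30 receptors 8 fell and 5 rose. The netrin receptors also parted, with UNC5C at -1.67 ± 0.07 and UNC5D at 1.43 ± 0.13, while NRP2, a semaphorin co-receptor, fell by 1.31 ± 0.10 and PLXNA3, a plexin, rose by 1.19 ± 0.08. UNC5C was at 0.11 with JQ1 and -0.96 with panobinostat.

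Signalling pathways differed in balance. In the NOTCH pathway 11 of 28 genes rose and 3 fell. The ligand JAG1 rose by 1.14 ± 0.08 and the target HEY2 by 1.47 ± 0.24, but the target HEY1 fell by 1.03 ± 0.10 and the coactivator MAML2 by 1.24 ± 0.11 (another, dimmer MAML2 cluster was at 0.33 and not called). In the WNT pathway 9 of 33 rose and 5 fell, and the falls included the antagonist DKK2 (-1.11 ± 0.28) and the co-receptor LRP5 (-1.05 ± 0.07), whereas the receptor FZD9 rose by 0.97 ± 0.12. In the BMP and TGF-beta pathway 10 of 25 fell and 5 rose. SMAD6, an inhibitor of BMP signalling that is itself induced by it, fell by 1.66 ± 0.14. The BMP effectors SMAD9 (-1.50 ± 0.07) and SMAD1 (-0.90 ± 0.15) fell too. GREM1, a BMP antagonist, fell by 0.90 ± 0.09, and SMAD4, the shared partner, was at -0.19 ± 0.08 (adjusted p = 0.087).

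Of 35 receptor tyrosine kinases and ligands 9 rose and 11 fell. MERTK, a receptor for ligands that bridge to dying cells, read 6.84, 6.37 and 6.87 in vehicle and 8.51, 8.63 and 8.63 in the combination (1.89 ± 0.13). GFRA2, the neurturin co-receptor of RET, moved as far the other way (-1.89 ± 0.08), and EGFR (-1.11 ± 0.09) and the collagen receptor DDR2 (-1.19 ± 0.07) fell too. Among 20 MAP kinase feedback genes 6 rose and 8 fell. The phosphatase genes DUSP14 (1.30 ± 0.09) and DUSP5 (1.18 ± 0.14) rose and DUSP16 (-1.65 ± 0.09) fell. The early response gene IER3 rose by 1.10 ± 0.10, and another, dimmer DUSP5 cluster was at 0.05 and not called.

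Genes of apoptosis and the cell cycle were next. Of 14 BH3-only and effector proteins 7 rose and 2 fell, with a median of 0.23, although 4 rose without combination replicate 3. BNIP3L, a mitophagy receptor of this family, read 11.26, 11.16 and 11.28 in vehicle and 12.13, 12.08 and 12.12 in the combination (0.88 ± 0.06). BCL2L11, which encodes BIM, rose by 0.69 ± 0.13, and BID, the link from death receptors to mitochondria, fell by 0.71 ± 0.07. Of 12 death receptor and caspase genes 3 fell and 1 rose (33.3% called, under the share of all genes). CFLAR, the inhibitor of caspase 8 at death receptors, fell by 1.25 ± 0.10, while APAF1, the apoptosome scaffold, rose by 0.81 ± 0.11. APAF1 was at 0.07 with JQ1 and 0.81 with panobinostat.

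Of 22 G1 cyclins, CDKs, CDK inhibitors and E2F factors 11 fell and 8 rose, and 5 rose with median centring. CCND1 and CCNE1 moved in opposite directions. CCND1, cyclin D1, read 11.61, 11.64 and 11.71 in vehicle and 10.20, 10.38 and 10.26 in the combination (-1.37 ± 0.08). CCNE1, cyclin E1, read 7.97, 7.87 and 7.88 against 8.84, 9.01 and 9.16 (1.10 ± 0.10). E2F2 (-1.15 ± 0.10) and E2F8 (-1.05 ± 0.09) fell, and E2F1 was at 0.00 ± 0.08. Of 22 homologous recombination and Fanconi genes 9 fell and 2 rose, and 1 rose with median centring, the replicate block, cluster means or without replicate 2 or 3 of either group. Both partners of MRE11 in the break-sensing complex fell, NBN by 1.35 ± 0.10 and RAD50 by 0.71 ± 0.07.

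Chromatin and transcription genes, the machinery that the compounds act on or beside, lie among the bright genes, and 63.0% of the brightest group of all genes were called. Of 29 acetyltransferases and corepressors 14 fell and 9 rose (79.3% called), with a median of -0.28. TBL1XR1, a subunit of the NCOR corepressor that carries HDAC3, read 10.44, 10.33 and 10.41 in vehicle and 8.23, 8.17 and 8.41 in the combination (-2.13 ± 0.08). The coactivator NCOA2 fell by 1.49 ± 0.08 and CREBBP, the acetyltransferase CBP, by 1.07 ± 0.07. SIN3A, the scaffold of another HDAC complex, read 10.08, 10.01 and 9.88 against 10.98, 11.14 and 11.11 and rose by 1.09 ± 0.08. SIN3A was at 0.09 with JQ1 and 0.82 with panobinostat.

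Of 27 polycomb genes 12 fell and 4 rose (59.3% called, near the share of bright genes), with a median of -0.15. PCGF1 and BCOR, partners in a variant PRC1 complex, fell by 1.75 ± 0.14 and 1.46 ± 0.08. PHF19, a PRC2 accessory protein, fell by 1.17 ± 0.08, while RYBP, also a PRC1 subunit, rose by 0.98 ± 0.07. RBBP4, a histone-binding subunit of PRC2, was at -0.15 ± 0.06 and not called. Of 34 Mediator and RNA polymerase II genes 12 fell and 9 rose (61.8% called, also near that share), and 7 fell without both replicate 1 arrays. The subunits MED26 (0.90 ± 0.08) and MED19 (0.80 ± 0.09) rose, and MED12, of the kinase module, fell by 0.77 ± 0.08. The replication-dependent histone list had 0 measured members.

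Other transcription factor families split within themselves. Of 15 clock genes 4 rose and 3 fell, and the partners of the core dimer parted. BMAL1 read 7.44, 7.41 and 7.33 in vehicle and 8.72, 8.88 and 8.82 in the combination (1.41 ± 0.10), whereas CLOCK read 10.12, 10.06 and 10.07 against 8.83, 8.79 and 9.03 (-1.20 ± 0.08). Their repressors PER1 (1.12 ± 0.08) and CRY2 (0.78 ± 0.08) rose. Of 25 KLF and SP factors 6 rose and 6 fell, with KLF2 at 1.51 ± 0.20, KLF11 at -1.16 ± 0.12 and SP4 at 0.84 ± 0.06. Of 27 HOX genes, which record position along the body axis, 8 fell and 2 rose (1 rose without combination replicate 1 or 2, without both replicate 1 arrays or without dim genes). The share of HOX genes called, 37.0%, was near that of all genes. HOXC8 read 9.20, 9.06 and 9.13 in vehicle and 7.49, 7.55 and 7.58 in the combination (-1.59 ± 0.10), and HOXC9 (-1.45 ± 0.07), HOXC4 (-1.15 ± 0.09) and HOXD3 (-1.82 ± 0.11) fell too. The 8 falls lay in the HOXC and HOXD clusters, 4 in each, and 0 of 10 HOXB genes fell. The HOXA cluster had only 3 measured entries, the antisense HOXA10-AS among them, and 0 were called. Of 11 nuclear hormone receptors 4 rose and 2 fell, led by the fatty acid sensors PPARA (1.08 ± 0.11) and PPARD (0.92 ± 0.09), though 2 rose without combination replicate 2 or 3 or vehicle replicate 3.

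Stress responses were mixed. Of 19 heat shock genes 6 rose and 2 fell, and the falls numbered 0 without combination replicate 2 or 3 and 1 without replicate 1 of either group or vehicle replicate 3. Apart from HSPA2, HSPA1A rose by 0.84 ± 0.07 and HSPA1B by 0.80 ± 0.07, near-identical genes whose probes may read both. BAG3, an HSP70 cochaperone, rose by 0.54 ± 0.10. Of 19 genes of the unfolded protein and amino acid stress response 7 rose and 4 fell. ERN1, which encodes the sensor IRE1, read 7.27, 6.94 and 7.11 in vehicle and 8.44, 8.56 and 8.68 in the combination (1.45 ± 0.11), while the sensor ATF6 was at 0.11 ± 0.07. Of 17 NRF2 targets and redox genes 7 rose and 4 fell. KEAP1 and NFE2L2, which encodes NRF2 itself, fell together (NFE2L2 -0.85 ± 0.11), and TXNIP, an inhibitor of thioredoxin, rose by 0.83 ± 0.12.

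Of 34 lysosome and autophagy genes 13 rose and 4 fell, with a median of 0.13, and 2 fell without both replicate 1 arrays. TP53INP1, an autophagy and stress protein, rose by 1.34 ± 0.12, the lipid transfer protein ATG2A by 0.97 ± 0.07 and the membrane protein LAMP2 by 0.78 ± 0.08. Of 26 antigen presentation and interferon genes 6 rose and 5 fell. ULBP2, the NKG2D ligand beside ULBP1, rose by 1.16 ± 0.12, and the interferon regulatory factors parted, with IRF7 at 1.06 ± 0.09, IRF3 at 0.86 ± 0.08 and IRF2 at -0.80 ± 0.07. IRF7 was at 0.91 with JQ1 and 0.14 with panobinostat.

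Ribosomal and respiratory chain genes had few calls beside the 37.7% of all genes. Of 41 ribosomal protein genes 2 rose and 1 fell (7.32% called), with RPL22 at -0.44 ± 0.08, and 0 rose without vehicle replicate 3. Leaving out combination replicate 2 gave 1 rise and 2 falls, and leaving out combination replicate 3 gave 1 rise. Of 14 respiratory chain and ATP synthase genes only COX6A1 was called (0.17 ± 0.06, 7.14% of the list), and 0 were called when any 1 vehicle or combination array was left out. Glycolysis was closer to the share of all genes, with 2 of 9 genes that rose and 1 that fell (33.3% called). TPI1 was at 0.48 ± 0.09 and LDHA, which makes lactate, at -0.50 ± 0.08. Among 15 integrin, matrix and protease genes 5 rose and 3 fell, led by CCN2 (1.24 ± 0.29, with another, dimmer cluster at 0.24 and not called). Among 22 cancer-testis and germ cell genes 3 rose and 3 fell, with PRAME at -0.89 ± 0.08 beside the rise of CCDC110. Of 57 listed voltage-gated channel genes only 3 were measured, of which HCN2 (0.88 ± 0.08) and HCN3 (0.36 ± 0.12) rose. HCN3 was not called without replicate 2 or 3 of either group. Few listed members were also measured for the respiratory chain (14 of 60), neurotransmitter receptors (15 of 67) and integrins, matrix and proteases (15 of 61). The same held for nuclear hormone receptors (11 of 48) and death receptors and caspases (12 of 36). Counts for these lists do not describe the whole families.

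**Figure D4:**
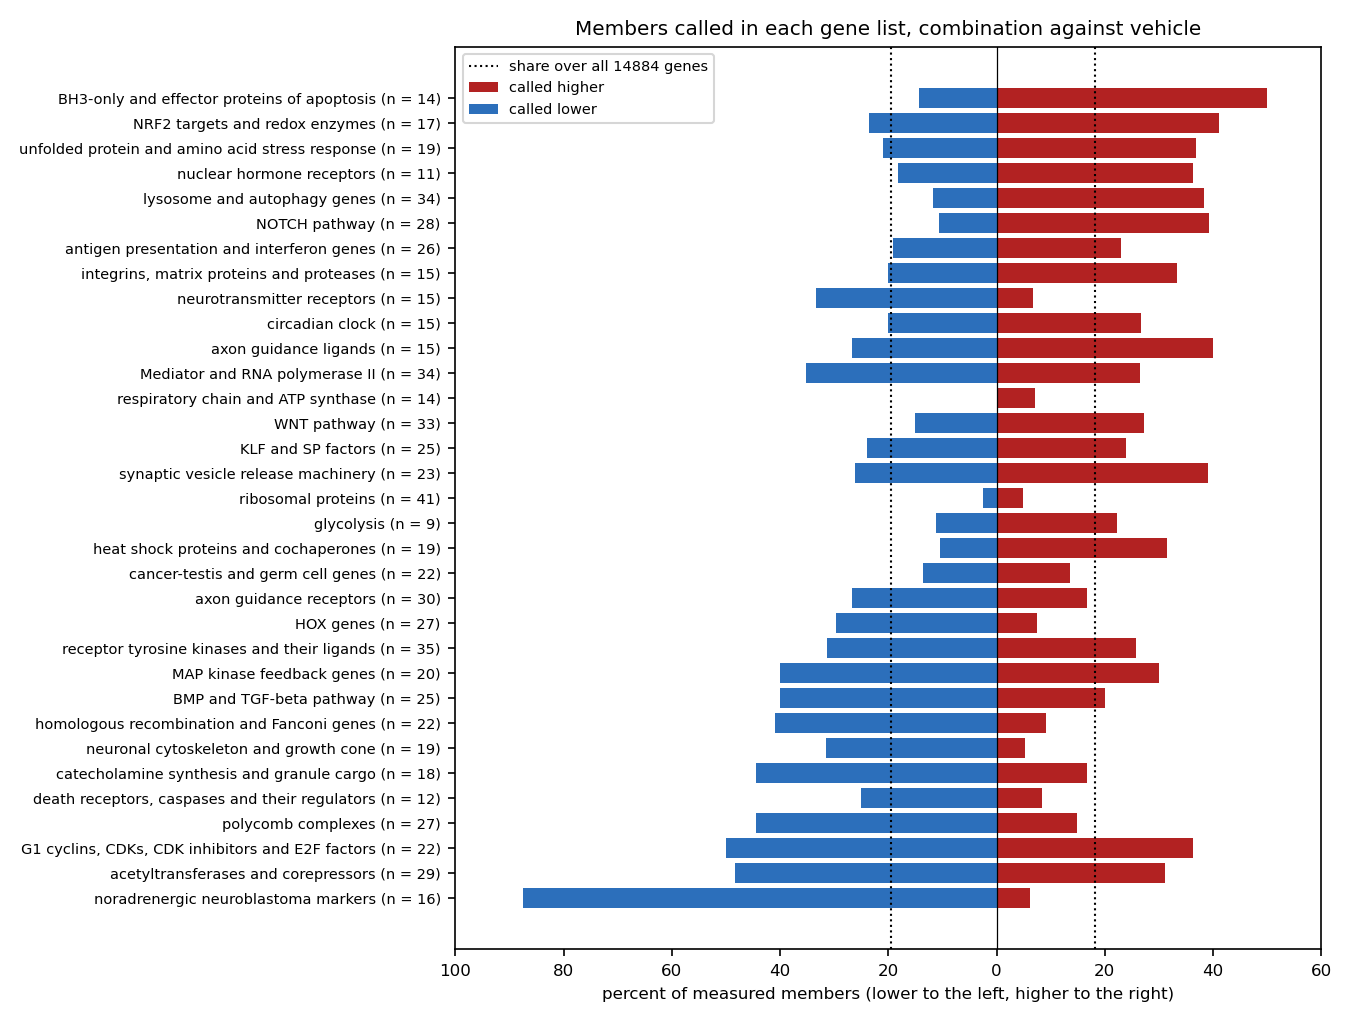
Percent of measured members called higher (red, to the right) and called lower (blue, to the left) in each gene list with at least 5 measured members, other cell types left out, with dotted lines at 18.2% and 19.5% for all 14884 genes. The noradrenergic markers have the longest lower bar (14 of 16), and the ribosomal proteins have short bars on both sides (3 of 41 called).

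Noncoding transcripts added the closest rival to REEP6. MIR7-3HG, the host transcript of the microRNA gene MIR7-3, read 6.91, 6.68 and 6.61 in vehicle and 9.89, 10.08 and 10.20 in the combination. All 3 combination arrays lay about 3 log2 units above vehicle (3.32 ± 0.10, 9.99-fold, limma adjusted p = 3.97e-09). It stood at 0.99 with JQ1 and 1.74 with panobinostat, and the combination exceeded panobinostat by 1.58 ± 0.10. The cluster of MIR7-3 itself, picked after its value was seen, read 5.20, 5.12 and 5.39 against 6.19, 6.18 and 6.48 (1.05 ± 0.11). The other lncRNA genes that the rule named were LINC00624 (2.10 ± 0.17) and ARHGEF26-AS1 (1.74 ± 0.15) among the rises and BOLA3-DT (-2.09 ± 0.21), LINC00963 (-1.97 ± 0.13) and LINC01761 (-1.82 ± 0.17) among the falls. Antisense and divergent transcripts lie close to their partner genes, and whether their probes read only them was not tested.

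Among miRNA genes 9.79% were called. Their clusters report RNA from the locus, which can be the primary transcript, and not the mature miRNA. The mature products of the miRNA genes with the largest changes that the sequence table allowed, and of MIR7-3, are shown 5′ to 3′ with the seed, bases 2 to 8, in capitals, since the seed sets which mRNAs a miRNA pairs with. They are from RefSeq in GRCh38.p14, and the 5 seeds differ from each other.
hsa-miR-7-5p: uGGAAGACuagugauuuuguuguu
hsa-miR-4525: gGGGGGAUgugcaugcugguu
hsa-miR-635: aCUUGGGCacugaaacaaugucc
hsa-miR-554: gCUAGUCCugacucagccagu
hsa-miR-3671: aUCAAAUAaggacuagucugca
They lie at chr19:4770700-4770723 (plus strand), chr17:82668281-82668301 (minus), chr17:68424511-68424533 (minus), chr1:151545811-151545831 (plus) and chr1:65057762-65057783 (minus), in that order.

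MIR4525, within the gene RAB40B, read 8.76, 9.07 and 8.81 in vehicle and 11.09, 10.63 and 11.11 in the combination (2.07 ± 0.13), with 0.05 for JQ1 alone and 1.03 for panobinostat alone. MIR635 read 4.46, 4.72 and 4.74 against 6.24, 6.85 and 6.60 (1.92 ± 0.16). MIR554 rose by 1.27 ± 0.16, and its host gene TUFT1 rose by 1.87. Groups without overlap were a condition for naming these 3 miRNA genes, and 18.2% of all miRNA genes met it. MIR3671 lies within JAK1, the cytokine receptor kinase, and fell by 2.12 ± 0.25 where JAK1 rose by 0.76. Another cluster of MIR3671 gave -2.09. MIR1204 (-2.08 ± 0.30) and MIR1206 (-1.89 ± 0.31) fell too, with JQ1 alone at -1.36 and -2.16.

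Of the 105 called miRNA genes 25 lay within a measured host gene on the same strand. Counted as pairs of a miRNA gene and its host, the host was called in 18, and in 15 it moved in the same direction. For the 242 miRNA genes that were not called and had such a host, the host was called in 123 pairs. In 85 of these pairs the host had a change of the same sign as the miRNA gene. Some hosts hold several miRNA genes, as AOPEP holds MIR23B and MIR27B, so the pairs are not independent. The median signal over all miRNA genes was 5.14, 5.27 and 5.28 on the vehicle arrays and 5.40, 5.29 and 5.28 on the combination arrays, so replicate 1 was lowest in one group and highest in the other. The part of that difference in the miRNA calls was not tested.

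Promoters of the genes that changed by at least 2-fold differed in sequence content. A RefSeq promoter was found for 10749 of the 14884 genes, and the 250 bases before the start were searched on both strands for short motifs. They were the TATA box core, searched as TATAAA, and the CCAAT box, searched as its name reads. The GC box, which SP and KLF factors are known to bind, was searched as CCGCCC. The E box of MYC and related factors was searched as CACGTG, and the cyclic AMP response element as TGACGTC. The AP-1 site was searched as TGACTCA, the ETS core as CCGGAAG, the YY1 core as AAGATGG and the AHR element as GCGTG. None of these strings lies within another. A CCAAT box was present in 54.8% of 230 genes at least 2-fold higher, in 23.9% of 364 at least 2-fold lower and in 36.2% of 2388 genes at or above the median signal that were not called. The share was 34.3% over all measured genes and 33.0% over all 27305 promoters of the table. REEP6 and TESK2 belong to the higher genes with the box. A GC box was present in 81.7% of the higher, 60.4% of the lower and 69.0% of the uncalled genes, against 57.8% of measured genes and 42.3% of all promoters.

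The shares followed the size of the change. Genes at or above the median signal were grouped by log2 change, whether called or not. A CCAAT box was present in 8.0% of 25 genes lower by 2 or more on the log2 scale. It was present in 25.6% of those lower by 1 to 2 and 27.1% of those lower by 0.5 to 1. The share was 33.0% and 39.7% for genes that changed by under 0.5 downward and upward. It was 46.3% for genes higher by 0.5 to 1 and 57.0% for the 179 higher by 1 or more. With JQ1 alone the box was in 59.5% of 42 genes at least 2-fold higher and 27.8% of 54 at least 2-fold lower, and with panobinostat alone in 56.0% of 91 and 20.1% of 139, all against the same vehicle arrays.

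Base composition moved with these shares. Median GC content was 68.4% in the higher, 64.4% in the lower and 65.2% in the uncalled promoters. Of them 5.22%, 16.2% and 6.62% were under 50% GC, TFAP2B and LRRTM1 among the lower ones. Over all measured genes with a promoter the median was 62.8%, and 17.7% were under 50% GC. The lower genes were thus near all measured genes in the share under 50%. An ETS core was in 11.3% of the higher, 6.59% of the lower and 19.1% of the uncalled promoters, against 12.4% of all measured genes. The remaining motifs were within 10 percentage points between higher and lower genes. With only 100 bases before the start the CCAAT shares were 40%, 14.6% and 22.4% for higher, lower and uncalled genes. A match to these letters is a description of the sequence and not a bound site, and the part of GC content in the CCAAT shares was not tested.

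**Figure D5:**
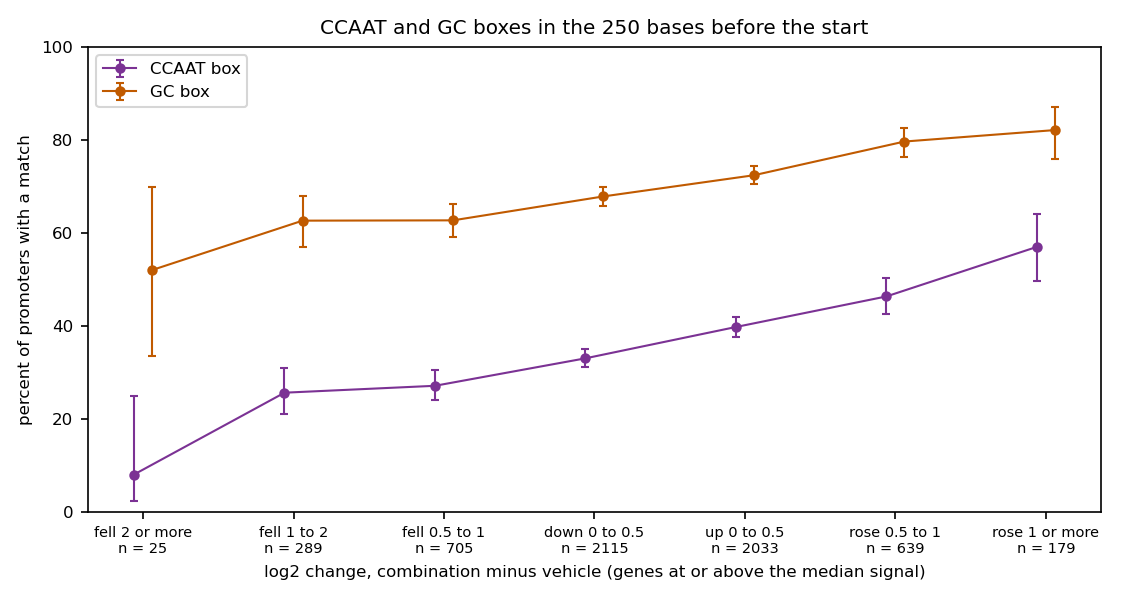
Percent of promoters with a CCAAT box (purple) or a GC box (orange) in the 250 bases before the start (vertical axis) by log2 change of the gene, combination minus vehicle (horizontal axis), for genes at or above the median signal. Bars are 95% Wilson binomial intervals, which cover counting error only and treat genes as independent, and the CCAAT share goes from 8.0% at the left to 57.0% at the right.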

How the data were processed

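Total RNA of 12 SK-N-BE(2) samples was read on Affymetrix Human Gene 2.0 ST arrays. The deposited table gives 1 log2 value per transcript cluster and array, as the authors made it. The log base was read from the values. MAS5 and affy are named, without version or role, per the submitters' processing notes. Not given in the sources used here were the background correction, the summarisation, the normalization and the genome build. The values carry no detection call, so signal over background is unknown. Precision is limited by the number of arrays.

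Of 53617 clusters 16098 had 1 gene symbol. Where a symbol had several clusters, that with the highest mean signal stood for it, which gave 14884 genes, with no filter and no further normalization. limma 3.58.1 in R 4.3.3 was fitted to all 12 arrays (lmFit and eBayes, 1 coefficient a group, 8 residual degrees of freedom), two-sided, with Benjamini-Hochberg adjustment over all genes. 3 comparisons were made: combination against vehicle, JQ1 and panobinostat. The fit was tested on simulated data.

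The rule for named genes took the 15 largest protein-coding rises and the 15 largest falls. It asked that a gene be called, that its groups not overlap and that the mean of its brighter group be at least 7.238, the median gene's mean. Added were the 3 lncRNA and 3 miRNA genes a direction with the largest changes, without the condition on level, and up to 4 called members and 1 uncalled member of each of 40 gene lists. The comparison, the lists and the rule were chosen with earlier results of these data known. Other settings tried were median centring, quantile normalization, leaving out dim genes, only the arrays compared, a replicate block, cluster means, an intensity trend and leaving out arrays.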

Additional observations from a re-analysis of the deposited data

Results flagged for a closer look

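A signal also appeared outside the 14884 genes. Of the 37519 transcript clusters with several gene symbols or none, 3849 (10.3%) differed between the combination and vehicle at a limma adjusted p under 0.05. Of these 1963 were higher and 1886 lower, and 774 differed by at least 2-fold. These clusters were tested apart from the genes and are not named here.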

How the results depend on the processing

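The count of called genes stayed between 5046 and 5887 over all settings, with 5614 in the report, and neither direction's count moved by more than 1.5 times. Median centring gave 2184 higher and 2920 lower, and leaving out combination replicate 1 and vehicle replicate 1, a setting chosen after seeing the data, gave 2712 and 2405, with 4611 genes shared with the reported 5614. Leaving out 1 array gave 5046 to 5271. Genes that differed between the combination and panobinostat numbered 2184 with all 12 arrays and 1325 with only the arrays of these groups, where fewer arrays estimate the spread. With the replicate number as a block 5214 genes were called. Same-numbered vehicle and combination arrays deviated with correlations of -0.65, -0.08 and -0.18, so the numbers are not read as a pairing. Of 2919 values of the 210 named genes under other settings 34 lost their call and 15 gained one. A change of direction was counted only where the gene was called in the report or in the other setting, and that count was 0. Changes of sign in values called in neither were not counted. Of 1092 list counts 71 moved by over 1.5 times, most from small counts, and leaving out dim genes moved some by removing members. The 100-base promoter window was also chosen after seeing the data. Signal over background is unknown, which limits what can be said of dim genes.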

Other observations

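The protocadherin beta genes, a tandem array of neuronal adhesion genes picked here after their values were seen, moved in 1 direction. Members were taken by symbol, whatever their gene type. Of 19 measured members 14 fell and 0 rose, beside 19.5% lower and 18.2% higher over all genes. Their median was -0.92 and their range -1.63 to -0.07. PCDHB16 read 9.60, 9.43 and 9.27 in vehicle and 7.63, 7.89 and 7.89 in the combination (-1.63 ± 0.12), PCDHB10 was at -1.20 ± 0.15 and PCDHB9 at -1.17 ± 0.19. The members are close in sequence, so probes of 1 may read others, and the 14 calls are not independent.

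Genes next to each other on a chromosome shared a direction only slightly more often than not. Of 9914 adjacent pairs of measured protein-coding genes 2015 had both members called, and 1066 of these (52.9%) moved the same way. Both members changed by at least 2-fold in 56 pairs, of which 33 moved the same way and 23 opposite ways. EFNA3 with EFNA4 and ULBP1 with ULBP2 rose together, HOXC8 with HOXC9 fell together, and HSPA2 (2.03) stood beside ZBTB1 (-1.44).

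Of 779 genes with more than 1 cluster 291 were called, and in 234 of these the brightest other cluster had the same direction. It was called in the same direction for 85 genes and in the opposite one for HEXIM1, HEXIM2 and ZNF248. Where the other cluster was itself above the median gene, 82 of 91 had the same direction, 49 were called so and 0 were called opposite. Some other clusters held the same change and mean signal as the brightest, as for HSPA1A (0.84) and IER3 (1.10). Agreement was fixed in advance for such genes, so these counts overstate the agreement between separate probes.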
